A study of Mus musculus with 12 samples.

Results

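The genes described here are 45 of the 20325 genes measured in mouse pre-iPSCs that were expressed in the control medium and strongly lower after 48 h of 2i. They were selected on the data themselves by 3 criteria. The mean TPM over the 3 DMSO libraries was 3 or more, which 10541 genes met. The TPM with 2i was at most 25% of the TPM with DMSO in each of the letters A, B and C. The mean difference of log2(TPM + 1) between AA and DMSO was below 0.5, which left out genes raised by AA beyond that limit and kept those raised less. TPM, the abundance of a transcript relative to all others, is scaled to the same sum in each library and corrected for transcript length, so that levels can be set side by side between genes.

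Pre-iPSCs are partially reprogrammed cells, kept as clonal lines, in which the endogenous pluripotency network is not yet fully active. The methods describe the starting cells both as heterozygous for R26 rtTA with a single cassette of the 4 reprogramming factors and, for lines from fibroblasts, as Nanog-GFP reporter fibroblasts given these factors by pMX retroviruses, and which description holds for the sequenced clone is not stated in the labels. The 4 conditions shared the clone's background, a serum-containing ESC medium and the absence of a feeder layer during treatment. They received DMSO, the solvent control, AA (ascorbic acid, 50 µg/ml), 2i (the MEK inhibitor PD0325901 at 1 µM with the GSK inhibitor CHIR99021 at 3 µM) or AA+2i, and RNA was taken on day 2. Each condition had 3 libraries, labelled as biological replicates A, B and C, and the labels do not say whether the clone came from fibroblasts or astrocytes. The paper describes the sequenced day 2 as a time without Nanog-GFP colonies, and its astrocyte lines as lacking that reporter.

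The MEK inhibitor blocks the kinase that activates ERK, which carries signals from growth factor receptors to the nucleus. Active ERK induces immediate-early transcription factors such as Egr1 and, as feedback, phosphatases such as Dusp6 and the Sprouty proteins. The GSK inhibitor stabilises β-catenin, which acts on TCF/LEF-bound genes. Both branches are used together to hold mouse ESCs in the naive state.

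The depth was 16173322 to 54392719 expected counts per library, and DMSO B and AA B were the deepest. The 8 markers of pre-iPSCs summed to 2025 to 9965 TPM with DMSO, most of it from Pou5f1 (Oct4), which is also a delivered factor. The other 7 summed to 160.0 to 292 TPM. Of these, Sox2, a delivered factor too, had 12.6, 98.1 and 15.0 TPM in DMSO A, B and C. Among the 8 markers, Fut4 was under 1 TPM in all 12 libraries. The 8 fibroblast or feeder markers summed to 3.59 to 11 TPM with DMSO, 8.5 to 19.4 for AA, 4.36 to 4.59 for 2i and 6.78 to 9.27 for AA+2i, and Col3a1, Postn, Dcn, Lum and Pdgfra were under 1 TPM in every library. Of 7 macrophage markers, 6 were under 1 TPM in all 12 libraries, and the other, Cd68, had 10.3, 28.7 and 9.87 TPM in DMSO A, B and C. The 5 endothelial markers summed to 9.73 to 16.2 TPM in DMSO, 6.38 to 12 in AA, 7.69 to 10.5 in 2i and 3.66 to 7.61 in AA+2i. Most of this was Tek, with 15.9, 15.5 and 9.09 TPM in DMSO A, B and C, while Kdr, Tie1 and Emcn were under 1 TPM in every library. The 6 keratinocyte markers summed to 5.07 to 8.06 TPM in DMSO, 5.83 to 9.3 in AA, 3.39 to 6.76 in 2i and 8.77 to 25.7 in AA+2i. Of these, Krt5, Krt1 and Ivl were under 1 TPM in every library. Astrocyte markers summed to at most 2.87 TPM in any library. Whether cells of these types were present, and their part in the values below, was not tested. In such bulk samples, fewer cells of a type and less RNA per cell cannot be told apart.

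The members were expressed at a wide range of levels. Their mean TPM with DMSO ran from 3.34 for Serpina3n to 396 for S100a4, with a median of 11.9. Medians were 7.46 for AA, 0.903 for 2i and 1.03 for AA+2i. Added up, they made 1331 to 1525 TPM in the DMSO libraries, 929 to 1125 in AA, 144 to 167 in 2i and 154 to 219 in AA+2i.

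Some members were nearly silent with 2i and others were still expressed. In all 3 libraries with 2i, 18 members were under 1 TPM, and 18 others were at 1 TPM or more. The mean with 2i was at most 10% of the DMSO mean in 19. The median member stood at 10.8% of its DMSO mean under 2i, at 74.3% under AA and at 10.2% under AA+2i. These percentages share the DMSO libraries, describe the selection and carry no test. At the limit of 25%, Runx2 was just inside at 25% in its highest letter, followed by Akr1c14 at 24.6% and Edn1 at 23.8%. Just outside lay Igfbp3 at 25.6%, Etv1 at 25.7% and Oas1h at 25.9%. The limit on AA alone kept out 8 further genes, which were Clec4a1, Col6a6, Fam55d, Insc, Lama3, Ly6f, Nos2 and Upk1b.

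**Figure D1:**
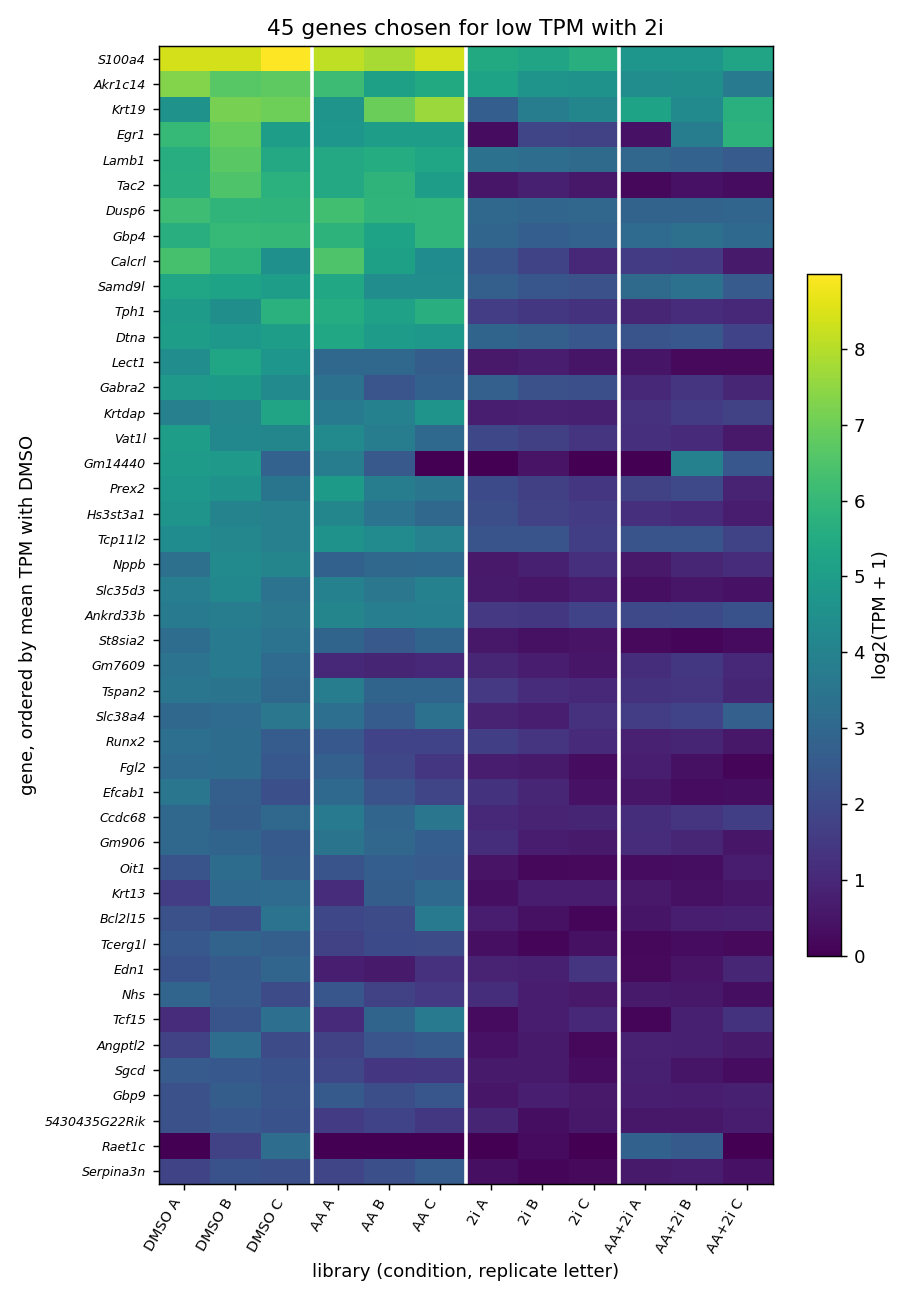
Level of the 45 genes in the 12 libraries, as log2(TPM + 1) on the colour scale, with the genes ordered by mean TPM with DMSO and the libraries by condition and letter. The 2i and AA+2i columns are darker than the DMSO and AA columns for most genes, and the clearest exceptions in AA+2i are Egr1, Krt19, Gm14440 and Raet1c.

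Promoter sequence was examined because both inhibitors act through transcription factors with known DNA letters. The RefSeq promoter table (GRCm38.p6) held 38 promoters for 33 of the 45 genes, and the 250 bases before each start were searched on both strands. The AP-1 letters TGACTCA were present in 3 of the 38 promoters (7.89%, against 4.46% of all 32851 promoters), those of Fgl2, Krt13 and Krtdap. The TCF/LEF letters CTTTGAT were also present in 3 (7.89%, against 3.21%), those of Krtdap, Tac2 and Tph1. The EGR letters, GCGTGGGCG or GCGGGGGCG, were present in that of Lamb1 (2.63%, against 3.06%), and the CRE letters TGACGTCA in that of Hs3st3a1 (2.63%, against 1.55%). The TATA letters TATAAA were present in 4 (10.5%, against 12.4%), those of Krtdap, Nppb, S100a4 and Slc38a4. The ETS letters CCGGAAG, found in 6.91% of all promoters, and the SRF CArG box, in 1.47%, had no match in the 38. The median GC content was 53.4% in the members' promoters and 52.4% in all. A match is a description of letters and not a binding site.

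The 100 bases before the start are shown for 5 members, 5′ to 3′ on the gene's strand (GRCm38.p6), because they hold one or more of these matches and the genes return in the results below. Capitals mark the TCF/LEF match in Tac2, the TATA box in Nppb, the AP-1 match and the TATA box in Krtdap, the AP-1 match in Fgl2 and the EGR match in Lamb1, each in the orientation of the gene.
Tac2, chr10:127724378-127724477, plus strand: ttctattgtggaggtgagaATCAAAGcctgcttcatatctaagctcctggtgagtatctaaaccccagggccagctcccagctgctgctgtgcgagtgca
Nppb, chr4:147985800-147985899, plus strand: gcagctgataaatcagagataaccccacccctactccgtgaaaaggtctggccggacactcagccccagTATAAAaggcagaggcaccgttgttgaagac
Krtdap, chr7:30787805-30787904, plus strand: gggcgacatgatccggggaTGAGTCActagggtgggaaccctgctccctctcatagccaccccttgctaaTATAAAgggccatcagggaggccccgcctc
Fgl2, chr5:21372573-21372672, plus strand: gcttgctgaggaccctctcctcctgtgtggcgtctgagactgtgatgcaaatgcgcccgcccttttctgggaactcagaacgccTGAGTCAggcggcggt
Lamb1, chr12:31265193-31265292, plus strand: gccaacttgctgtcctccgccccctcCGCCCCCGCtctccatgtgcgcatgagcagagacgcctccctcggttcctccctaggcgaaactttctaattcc

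The question that the design allows to be asked without the values that chose the genes is whether they were also low when 2i was added to AA. The AA+2i libraries played no part in the selection, and AA entered it only as an upper limit, which favours low values with AA and so works against a fall. Of the 45 genes, 37 were lower with AA+2i than with AA (edgeR quasi-likelihood test, adjusted p between 3.41e-05 and 0.0378 over 13400 genes), against 3.29% of all genes tested. None was called higher in the reported edgeR fit, by DESeq2 or by limma, against 2.81% of all genes in edgeR. With GC correction, edgeR called 1 member, Raet1c, higher. At an unadjusted p under 0.05, 1 member was higher in edgeR, against 7.72% of all genes. Among the other 10496 genes with a mean DMSO TPM of 3 or more, 2.34% were called lower. The log2 fold change from AA to AA+2i had a median of -2.69 over the members and of -0.01 over all genes tested. Every member passed the filter on low counts.

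The fall was also visible library by library. In 40 of the 45 genes the AA+2i value lay below the AA value of the same letter in all 3 letters, a pattern seen in 29.5% of tested genes. In 37, every AA+2i library lay below every AA library, against 16.8% of tested genes. In 29, AA+2i was at most 25% of AA in all 3 letters, which 0.143% of the other expressed genes met. The median member had 13.3% of its AA level with AA+2i, over the 44 members with a value above 0 with AA. Without the B libraries, which include the deepest AA library, 6 of the 44 members that could be tested were still called lower, and without C 23, while without A 34 were. The median log2 fold change without B was -2.77.

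**Figure D2:**
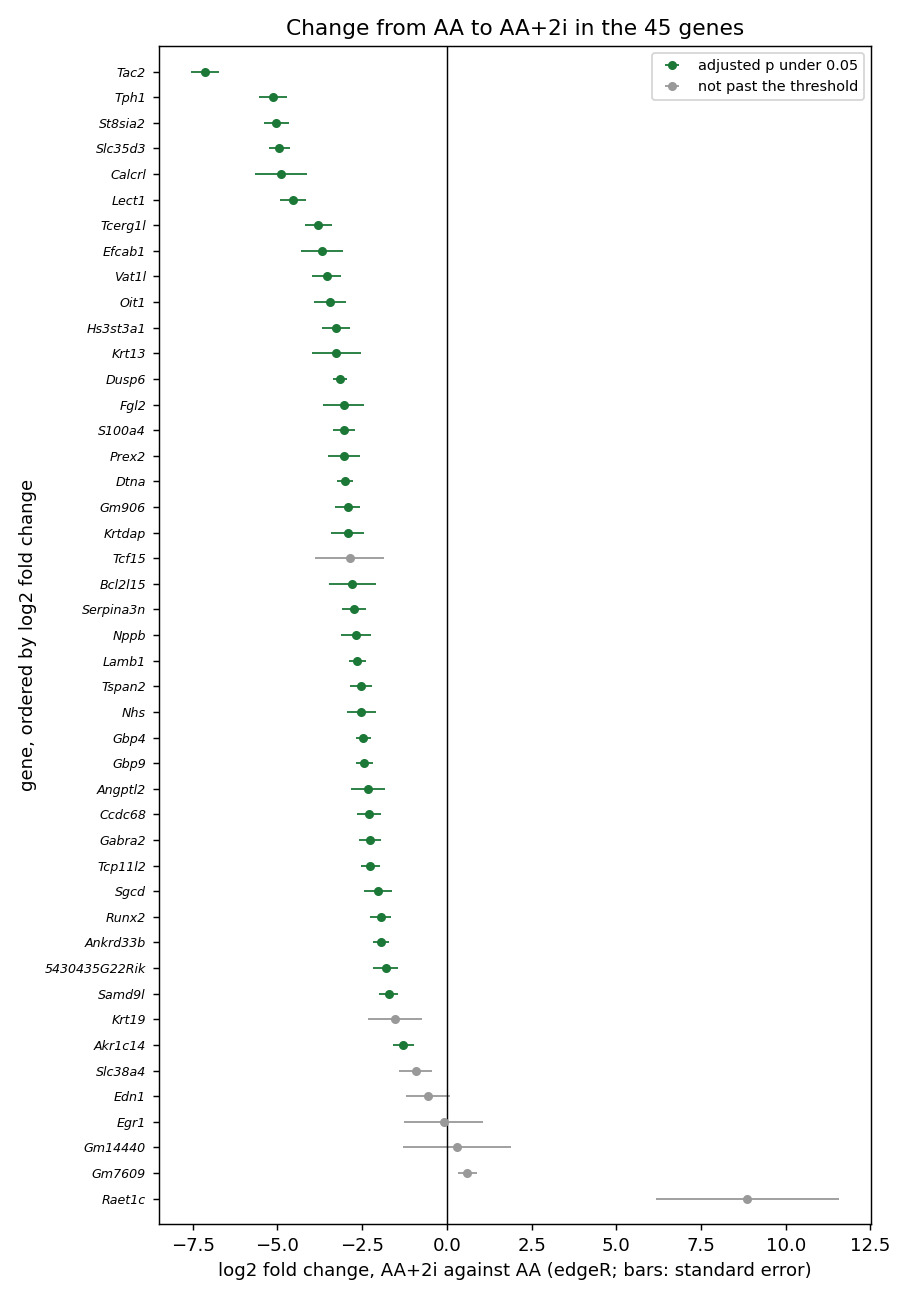
Log2 fold change from AA to AA+2i of each of the 45 genes, from edgeR, with bars for the standard error. Green points have an adjusted p under 0.05, and all 37 lie left of 0, from -1.29 for Akr1c14 to -7.13 for Tac2, whereas 8 grey points do not pass the threshold. The point of Raet1c rests on AA libraries at 0, so its place depends on the count added in the fit.

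Secreted proteins were encoded by 9 members, and 8 of them fell from AA to AA+2i. The deepest fall of all members was that of Tac2, which encodes the tachykinin neurokinin B (mm9 chromosome 10, 127162448 to 127168823, plus strand). Its TPM was 49, 90.5 and 52.1 in DMSO A, B and C, 42, 56.6 and 31.1 with AA, 0.45, 0.75 and 0.48 under 2i and 0.15, 0.37 and 0.23 under AA+2i. The 6 libraries with 2i thus lay under 1 TPM and the 6 without it at 31.1 TPM or more, and the log2 fold change from AA to AA+2i was -7.13 ± 0.42 (SE, n = 3 per group, edgeR adjusted p = 3.41e-05). As few as 1 expected count stood behind the lowest Tac2 value.

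Lect1, which encodes the cartilage matrix protein chondromodulin, had values below DMSO under each single treatment. It had 20.1, 38.2 and 25.7 TPM with DMSO, 7.01, 7.10 and 5.30 with AA, 0.54, 0.62 and 0.44 under 2i and 0.42, 0.17 and 0.16 under AA+2i. AA alone left 23.1% of the DMSO mean and 2i 1.91%, and the step from AA to AA+2i was -4.54 ± 0.37 (edgeR adjusted p = 0.00011).

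Krtdap, a secreted protein of differentiating keratinocytes, had 13.9, 16.7 and 37.1 TPM with DMSO and 11.9, 14.5 and 23.9 with AA. With 2i it had 0.70, 0.78 and 0.75 TPM, and with AA+2i 1.43, 1.94 and 2.35. The difference of AA+2i from 2i was 1.39 ± 0.59 (edgeR adjusted p = 0.459), on as few as 3 counts, and the fall from AA to AA+2i was -2.92 ± 0.49 (edgeR adjusted p = 0.00541). Oit1, a secreted protein of the FAM3 family, had 4.0, 8.05 and 5.31 TPM with DMSO, 4.10, 5.39 and 5.0 with AA, 0.39, 0.13 and 0.17 under 2i and 0.24, 0.26 and 0.61 under AA+2i, a fall from AA of -3.45 ± 0.46 (edgeR adjusted p = 0.00163).

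Nppb, the precursor of B-type natriuretic peptide, fell by 2.69 on the log2 scale from AA to AA+2i. Fgl2, a fibrinogen-like prothrombinase, fell by 3.04, the serine protease inhibitor Serpina3n by 2.74 and the angiopoietin-like protein Angptl2 by 2.32 (edgeR adjusted p between 0.0014 and 0.0188 for these 4 genes). The secreted gene outside this pattern was Edn1, the vasoconstrictor endothelin-1. Edn1 had 3.77, 4.86 and 6.63 TPM with DMSO but 0.67, 0.55 and 1.45 with AA, which overlapped the 0.86, 0.72 and 1.58 found under 2i. Under AA+2i it had 0.17, 0.38 and 0.95 TPM. Its AA mean was 17.5% of the DMSO mean, and the further step to AA+2i was -0.56 ± 0.64 (edgeR adjusted p = 0.68).

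Of 6 genes for matrix and cytoskeleton, 5 fell from AA to AA+2i. Lamb1, the β1 chain of laminin in basement membranes, had 47.2, 102 and 42.5 TPM with DMSO, 41.5, 46.2 and 38 with AA, 9.49, 8.19 and 7.55 under 2i and 6.89, 6.04 and 4.94 under AA+2i. DMSO B stood above the other DMSO libraries, and no library with 2i reached 10 TPM. The fall from AA was -2.64 ± 0.26 (edgeR adjusted p = 0.000278). Dtna (α-dystrobrevin) and Sgcd (δ-sarcoglycan), which belong to the dystrophin complex, fell by 3.01 and 2.04, and Nhs, an actin regulator, by 2.52 (edgeR adjusted p between 9.35e-05 and 0.0143).

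The epithelial keratins Krt13 and Krt19 lie 19244 bases apart on chromosome 11 (mm9, 99978641 to 99982880 and 100002124 to 100009979, minus strand). Krt13 fell by 3.26 on the log2 scale (SE 0.72, edgeR adjusted p = 0.022). Krt19 had 23.8, 142 and 129 TPM with DMSO and 24.1, 125 and 199.9 with AA, so that letter A was low in both. With 2i it had 5.42, 12.7 and 16.6 TPM, and with AA+2i 36.3, 18.8 and 50.6, which in letter A exceeded the AA library. Its step from AA was -1.53 ± 0.81 and did not pass the test (edgeR adjusted p = 0.386), whereas with GC correction it was called lower (-1.78, edgeR adjusted p = 0.0116).

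All 4 enzymes fell from AA to AA+2i. Tph1, which catalyses the rate-limiting step of serotonin synthesis outside the brain, had 29.3, 21.4 and 52.5 TPM with DMSO, 46, 34.2 and 49.8 with AA, 2.11, 1.73 and 1.48 under 2i and 0.94, 1.23 and 1.0 under AA+2i. No library with 2i exceeded 2.11 TPM and none without it was below 21.35 TPM, and the fall from AA was -5.13 ± 0.41 (edgeR adjusted p = 0.000105). St8sia2, the polysialyltransferase that modifies NCAM, had 8.28, 12 and 9.72 TPM with DMSO, 6.44, 4.63 and 6.41 with AA, 0.51, 0.31 and 0.40 under 2i and 0.18, 0.09 and 0.19 under AA+2i. The fall from AA was -5.03 ± 0.36 (edgeR adjusted p = 5.27e-05), and each AA+2i library was also below each 2i library.

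Hs3st3a1, a heparan sulfate 3-O-sulfotransferase, had 24, 15.3 and 13.9 TPM with DMSO, 16.4, 9.83 and 7.0 with AA, 3.50, 2.34 and 2.03 under 2i and 1.33, 1.17 and 0.59 under AA+2i. The change from AA was -3.27 ± 0.40 (edgeR adjusted p = 0.000989). Akr1c14, a 3α-hydroxysteroid dehydrogenase, was the second most abundant member and kept the largest share of its DMSO mean with 2i, 23.0%. It had 157, 99.3 and 107 TPM with DMSO, 71.3, 33.8 and 42.8 with AA, 35.8, 24.4 and 23.5 under 2i and 20.1, 21.3 and 12.4 under AA+2i. Its fall of -1.29 ± 0.31 from AA was the smallest that was called (edgeR adjusted p = 0.0316).

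Of 6 membrane proteins, 4 fell from AA to AA+2i. Calcrl, the receptor that pairs with RAMP proteins to bind adrenomedullin and CGRP, varied between letters and was lower with AA+2i than with AA in each. It had 81.2, 54.8 and 21.6 TPM with DMSO, 91.5, 33.3 and 19.5 with AA, 4.05, 2.56 and 1.07 under 2i and 1.94, 1.84 and 0.56 under AA+2i, with A the highest and C the lowest in all 4 conditions. The change from AA was -4.89 ± 0.76 (edgeR adjusted p = 0.00374). Slc35d3, an orphan relative of the nucleotide sugar transporters, had 13.4, 17.4 and 9.65 TPM with DMSO, 14.4, 10.9 and 14.5 with AA, 0.55, 0.46 and 0.66 under 2i and 0.30, 0.46 and 0.37 under AA+2i, a fall from AA of -4.95 ± 0.31 (edgeR adjusted p = 3.41e-05). The tetraspanin Tspan2 fell by 2.53 (edgeR adjusted p = 0.00129).

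Gabra2, a subunit of the GABA-A receptor (mm9 chromosome 5, 71352296 to 71487088, minus strand), was the member whose AA+2i level fell below both single treatments in the test. It had 27.5, 29.2 and 18.6 TPM with DMSO, 9.18, 4.15 and 6.0 with AA, 5.73, 3.72 and 3.57 under 2i and 1.03, 1.58 and 0.93 under AA+2i. The AA and 2i values overlapped, and all 3 AA+2i libraries lay below them. The change was -2.26 ± 0.33 from AA (edgeR adjusted p = 0.00247) and -1.85 ± 0.32 from 2i (edgeR adjusted p = 0.0242). The call against 2i was lost when any of the 3 letters was left out and with limma.

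The 2 membrane proteins that did not pass the test were of different kinds. Slc38a4, an amino acid transporter, had 7.27, 7.75 and 10.7 TPM with DMSO, 8.65, 5.17 and 9.35 with AA, 0.83, 0.67 and 1.42 under 2i and 2.09, 2.54 and 5.73 under AA+2i, lower than AA in each letter, with a change of -0.92 ± 0.48 (edgeR adjusted p = 0.38). Raet1c, a ligand of the NKG2D receptor on natural killer cells, had 0, 2.42 and 8.25 TPM with DMSO, was listed at 0 in all 3 AA libraries, and had 0, 0.20 and 0 under 2i and 5.88, 4.83 and 0 under AA+2i. It met the criterion in letter A only because both values were 0, and it belongs to a family of near-identical genes among which the counting divides reads, so its values are uncertain.

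Of 8 genes for signalling and transcription, 6 fell from AA to AA+2i. Dusp6, the phosphatase that removes activating phosphates from ERK (mm9 chromosome 10, 98725865 to 98730122, plus strand), had 72.5, 58.1 and 56.9 TPM with DMSO and 75.2, 58 and 59.9 with AA. With 2i it had 7.14, 6.68 and 6.85 TPM, and with AA+2i 6.22, 6.19 and 6.63. The libraries of a condition lay close together, and the change from AA was -3.15 ± 0.21 (edgeR adjusted p = 5.01e-05). S100a4, a calcium-binding protein of motile cells (mm9 chromosome 3, 90407692 to 90409967, plus strand), was the most abundant member, with 342, 339 and 507 TPM with DMSO, 278, 224 and 327 with AA, 43, 36.6 and 48.2 under 2i and 25.2, 25.5 and 36.8 under AA+2i. It kept 10.8% of the DMSO mean with 2i, and its change from AA was -3.04 ± 0.32 (edgeR adjusted p = 0.000448).

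Runx2, the transcription factor of osteoblast differentiation, had 8.76, 7.99 and 5.16 TPM with DMSO, 4.57, 2.54 and 2.53 with AA, 2.19, 1.63 and 1.11 under 2i and 0.77, 0.89 and 0.48 under AA+2i, and fell from AA by 1.95 on the log2 scale (SE 0.31, edgeR adjusted p = 0.00415). Tcerg1l, which is little described, had 4.62, 6.31 and 5.67 TPM with DMSO, 2.44, 3.08 and 3.26 with AA, 0.30, 0.09 and 0.32 under 2i and 0.15, 0.22 and 0.17 under AA+2i, a fall of -3.80 ± 0.40 (edgeR adjusted p = 0.000448). Prex2, an exchange factor for the GTPase Rac, fell by 3.03, and 5430435G22Rik, known as Rab7b, a GTPase of the endosomal pathway, by 1.80 (edgeR adjusted p between 0.00377 and 0.0157). Tcf15, a bHLH factor of the paraxial mesoderm, was lower with AA+2i than with AA in each letter, but its levels with AA spread from 1.16 to 12.5 TPM between letters, and the change of -2.86 ± 1.02 did not pass the test (edgeR adjusted p = 0.15). It was called with DESeq2 (adjusted p = 0.0399) and in edgeR with GC correction (-3.63, adjusted p = 0.00266).

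Egr1, the immediate-early zinc finger factor, had AA+2i levels that differed widely between letters. It had 63.7, 116 and 31.9 TPM with DMSO, 25.2, 32 and 31.7 with AA and 0.22, 2.72 and 2.32 with 2i. With AA+2i it had 0.35, 12.6 and 54.8 TPM, so that letter A was under 1 TPM as with 2i, letter B was between 2i and AA, and letter C exceeded AA. The change from AA was -0.09 ± 1.16 (edgeR adjusted p = 0.973), and it turned to 0.34 without A and to 0.31 without B. Egr1 was not alone in this. With AA+2i, Fos had 6.99, 39.3 and 167 TPM and Ier2 44.9, 25.4 and 213, neither of them a member. In letter C both exceeded their AA values of 70.5 and 61.8 TPM. Myc (213 against 294 TPM with AA) and Etv4 (21.0 against 69.1) did not. The part of library AA+2i C in the Egr1 values was not tested.

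**Figure D3:**
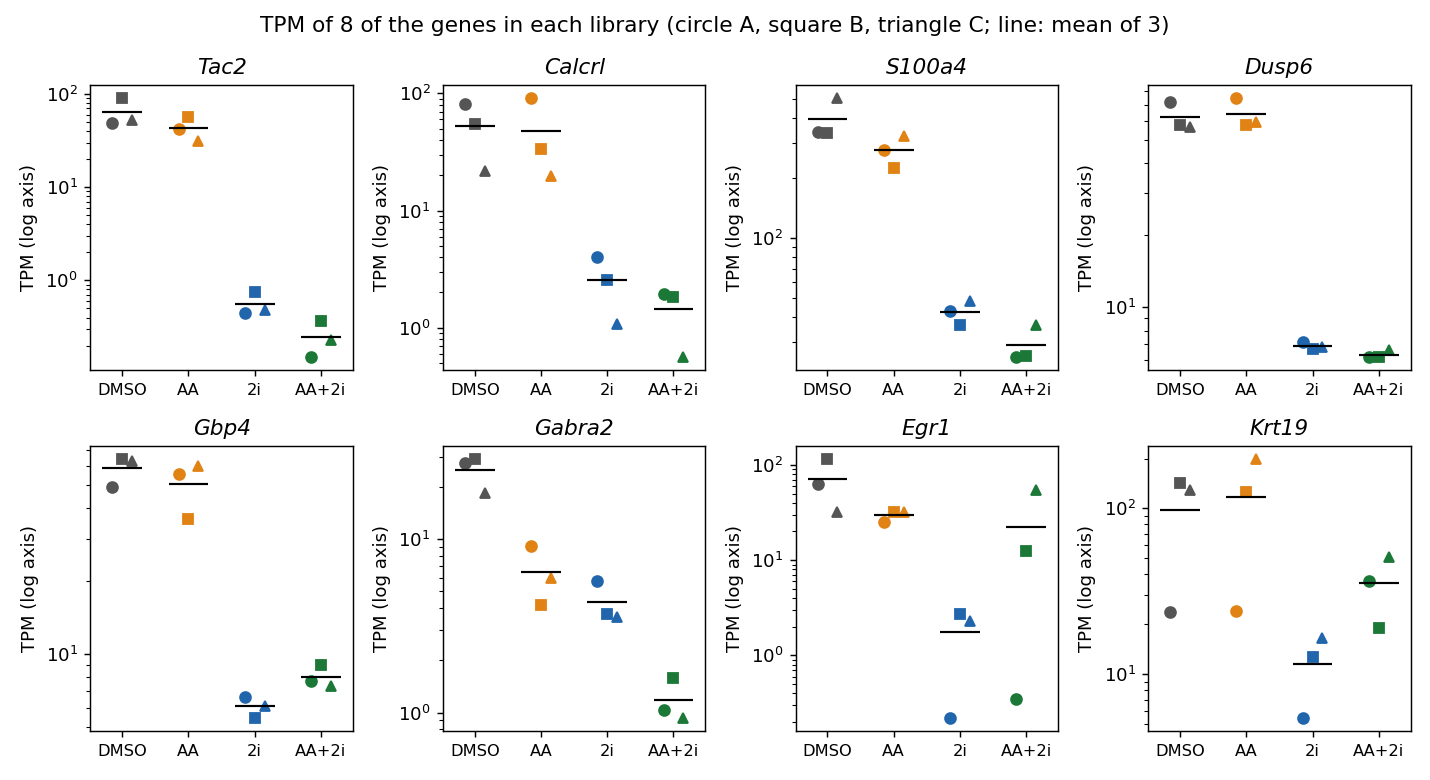
TPM of 8 of the genes in each library on a log axis, with circles, squares and triangles for letters A, B and C and a line at the mean of 3. In Tac2, Calcrl, S100a4, Dusp6 and Gbp4 the AA+2i libraries lie far below AA, and in Gabra2 they lie below 2i as well. In Egr1 they spread up to the AA level, and in Krt19 letter A alone exceeds the AA library of the same letter.

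The 3 interferon-induced proteins all fell from AA to AA+2i. Gbp4 and Gbp9 are guanylate-binding GTPases encoded 5475 bases apart on chromosome 5 (mm9, 105544786 to 105568605 and 105507413 to 105539311, minus strand). Gbp4 had 49, 64.2 and 63 TPM with DMSO, 55.7, 36.2 and 59.7 with AA, 6.66, 5.44 and 6.12 under 2i and 7.77, 8.99 and 7.37 under AA+2i, a change from AA of -2.47 ± 0.22 (edgeR adjusted p = 0.000224). Gbp9 changed by -2.43 ± 0.26 (edgeR adjusted p = 0.000455). Expected counts of both were fractional in all 12 libraries, so reads were shared among similar transcripts. Samd9l, an interferon-induced antiviral protein, had 38, 36 and 32.2 TPM with DMSO, 41.3, 20.4 and 20.4 with AA, 5.59, 4.26 and 3.69 under 2i and 7.66, 9.47 and 4.93 under AA+2i, and fell from AA by 1.72 (SE 0.29, edgeR adjusted p = 0.00519).

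The remaining 9 members have few described functions, and 7 of them fell. The deepest fall was that of Efcab1, an EF-hand protein, with 10.6, 5.61 and 3.60 TPM with DMSO, 7.42, 3.98 and 2.71 with AA, 1.49, 0.95 and 0.37 under 2i and 0.45, 0.22 and 0.27 under AA+2i, a change from AA of -3.69 ± 0.62 (edgeR adjusted p = 0.00548). Vat1l fell by 3.55, Gm906 by 2.93, the Bcl2 relative Bcl2l15 by 2.79, Ccdc68 by 2.30, Tcp11l2 by 2.26 and Ankrd33b by 1.94 (edgeR adjusted p between 0.00102 and 0.0378).

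The other 2 of these, Gm7609 and Gm14440, had fractional expected counts in 12 and 11 of the 12 libraries. Gm7609 had 9.61, 12 and 7.93 TPM with DMSO, 1.03, 0.90 and 0.99 with AA, 0.95, 0.61 and 0.45 under 2i and 1.26, 1.73 and 1.01 under AA+2i, so that its AA mean was 9.89% of the DMSO mean. Gm14440 had 29.3, 27.9 and 6.05 TPM with DMSO, 13.1, 4.68 and 0.02 with AA, 0, 0.39 and 0.01 under 2i and 0, 14.5 and 4.46 under AA+2i. Its letters followed no common order, and neither gene passed the test from AA to AA+2i (edgeR adjusted p = 0.312 and 0.93).

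AA+2i was next compared with 2i, to see whether AA moved the members further once 2i was present. Since low values with 2i chose the genes, a fall runs against the selection and a rise runs with it. In the reported edgeR fit, Gabra2 alone was called lower, against 0.149% of all genes tested, and none was called higher, against 0.761%. DESeq2 called 4 lower and 1 higher, edgeR with GC correction 3 and 1, and limma none in either direction. Fits with the letter as a block called more in both directions, as given at the end. At an unadjusted p under 0.05 in edgeR, 8 members were lower, against 3.6% of all genes, and 10 were higher, against 5.93%. The median log2 fold change was -0.07 over the members and 0.0 over all genes, with 24 negative and 21 positive. After Gabra2, the largest falls were -1.55 for Efcab1, -1.35 for Hs3st3a1, -1.34 for St8sia2 and -1.17 for Runx2 (edgeR adjusted p between 0.108 and 0.452). The largest rises were those of Gm14440 and Raet1c, whose fitted size rests on 2i libraries at 0 and is not given, followed by 3.79 for Egr1, 1.90 for Slc38a4 and 1.64 for Krt19 (edgeR adjusted p between 0.117 and 0.611 for these 5 genes).

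AA alone entered the selection as an upper limit and DMSO as a lower limit, and both favour AA values below DMSO. The AA values are therefore given as a description, without a share over all genes. The AA level was below the DMSO level in 34 members and at most 50% of it in 11. The lowest AA means relative to DMSO, after Raet1c at 0, were those of Gm7609 at 9.89%, Edn1 at 17.5%, Lect1 at 23.1% and Gabra2 at 25.7%. Against these, Dusp6 had 103% of its DMSO mean with AA, Slc35d3 98.8%, Tph1 126% and Ccdc68 148%.

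Gene lists chosen by pathway and family were examined, with the fold change of 2i against DMSO over all genes as the measure. The lists of kallikreins and IGF-binding proteins held no member. Over all genes tested, 2.83% were called lower with 2i and 1.59% higher. Of the 377 tested genes on the lists, members included, 41 were called lower, 7 without B and 15 without C. Members among them were chosen on this contrast and are named as such. Their calls follow from the selection, so the 41 is a description and is not read against the share over all genes.

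Of 19 tested genes for ERK output and feedback, 5 were lower with 2i and none higher. Beside Dusp6, these were Dusp4, Spry1, Spry4 and Etv1, with log2 fold changes of -1.58 ± 0.20, -1.65 ± 0.28, -1.22 ± 0.18 and -1.85 ± 0.38 (edgeR adjusted p between 0.00184 and 0.02). Dusp4, another ERK phosphatase, had a mean of 32.1 TPM with DMSO, 19.0 with AA, 9.31 under 2i and 3.35 under AA+2i. From AA to AA+2i, 7 genes of this list were lower, which added Etv5 at -0.80 ± 0.19 and Ccnd1 (cyclin D1) at -0.79 ± 0.16. Egr1, the other member in the list, was not called in either comparison. The median log2 fold change with 2i was -0.89 over the list and -0.83 over its 17 tested non-members. Among all 18 dual specificity phosphatases tested, Dusp4 and Dusp6 were the 2 called lower with 2i.

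Of 9 S100 genes, 3 were lower with 2i. Beside the member S100a4, these were S100a3 (-2.89 ± 0.58, from 147 to 17.4 TPM) and S100a16 (-1.54 ± 0.25, from 36.5 to 11 TPM; edgeR adjusted p of 0.0173 and 0.00671). Of 16 genes on the list of keratins and Krtdap, 3 were lower, and the one that is not a member was Krt20, which had 1.2 TPM with DMSO. Of 13 kallikreins, none a member, 3 were lower with 2i, Klk1 (-2.34 ± 0.33, from 880.0 to 153 TPM), Klk1b22 and Klk1b24, and from AA to AA+2i 5 were lower and Klk7 was higher. The kallikreins are a cluster of closely similar secreted proteases, so reads may be divided among them.

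Among laminins, nidogens and TIMPs, the genes lower with 2i included the member Lamb1, Nid1 (-1.98 ± 0.27), Timp3 (-1.97 ± 0.34) and Lama3 (-3.35 ± 0.22; edgeR adjusted p between 4.42e-05 and 0.00795 for the last 3). Lama3 met the criterion of 25% but exceeded the limit on AA, with a mean log2(TPM + 1) difference of 0.74 from DMSO. From AA to AA+2i, Timp3 and Lama3 were lower (edgeR adjusted p = 0.00176 and 5.27e-05), and Nid1 was not called (edgeR adjusted p = 0.0719).

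Of 7 guanylate-binding proteins, the members Gbp4 and Gbp9 were the 2 called lower with 2i. Of 24 interferon-induced genes, 3 were lower, which were the member Samd9l, Oas2 (-2.45 ± 0.35) and Rsad2 (-1.31 ± 0.31). The edgeR adjusted p of Oas2 and Rsad2 was 0.00299 and 0.0385. The median was -0.60 over this list and -0.49 over its 23 tested non-members. Of 12 tested tachykinin, natriuretic and endothelin peptides with their receptors, adrenomedullin and RAMPs, 3 were lower with 2i, all of them members, and 4 from AA to AA+2i, the fourth gene being the natriuretic peptide clearance receptor Npr3, which had 0.993 TPM with AA. Of 6 sialyl- and sulfotransferases of the St8sia and Hs3st families, 3 were lower with 2i, the members St8sia2 and Hs3st3a1 together with St8sia1 (-1.67 ± 0.28, edgeR adjusted p = 0.00717). Of 6 IGF-binding proteins, Igfbp3 was lower (-2.15 ± 0.22, edgeR adjusted p = 0.000575). Of 235 solute carriers, 10 were lower and 6 higher with 2i.

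**Figure D4:**
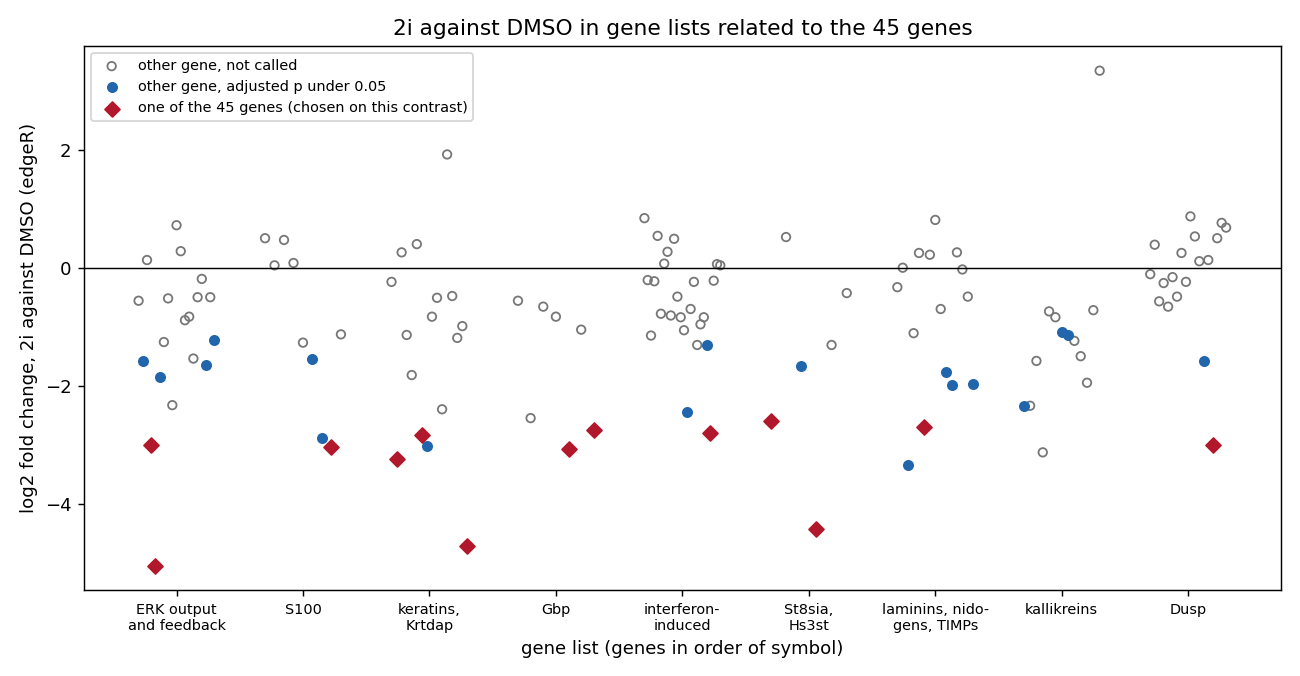
Log2 fold change of 2i against DMSO, from edgeR, for each tested gene of 9 gene lists, with genes spread sideways by symbol within a list. Red diamonds are the members, which were chosen on this contrast, blue points are other genes with an adjusted p under 0.05, and open circles are genes that were not called and mostly lie closer to 0.

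Apart from the keratin and guanylate-binding pairs, no members with a position in the annotation lay within 1000000 bases of each other. Their transcripts had a median GC content of 48.5% over the 44 with a value, from 36.0% in Gm14440 to 65.8% in Tcf15, against 50.3% over 13300 tested genes. The median transcript length was 2760 bases against 3016. Expected counts were fractional in more than 6 libraries for 20 members, and 23 members had at least 10 counts in every library.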

How the data were processed

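The data were RNA-seq of 12 libraries of mouse pre-iPSCs, 3 for each of 4 conditions. After trimming and quality filtering, the authors aligned the reads with Bowtie2 to RefSeq genes of mm9, and RSEM 1.2.4 (the version per the labels) gave the expression estimates. The authors deposited, for each library, RSEM expected counts, unnormalised and partly fractional, and TPM, which are scaled to a fixed sum. A read shared by similar transcripts is divided among them. One deposited TPM cell (0610011F06Rik in AA C) was malformed and was set to 40.6, the amount missing from the fixed sum of that library. No other value was changed.

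The members were found from TPM. Rounded expected counts entered edgeR 4.0.16 (R 4.3.3) with RLE factors, a quasi-likelihood F test and 1 model of 4 group means. A gene was tested if 3 or more libraries had 10 or more counts, which left 13400. Benjamini-Hochberg adjusted p-values under 0.05 over all genes were called. Standard errors were derived from the F statistic and the log2 fold change and therefore restate the test. The labels call the libraries biological replicates, without naming separate cultures. Depth was 16173322 to 54392719 expected counts, and genes at few counts are the least precise. GC correction, where used, was a loess fit of span 0.4 on log counts with a prior count of 2.

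The members and the gene lists were chosen with earlier results of these data known. Values in each library were given for the 10 members highest with DMSO, the 10 with the lowest ratio of 2i to DMSO, the 8 with the largest and the 8 with the smallest fall from AA to AA+2i, the 5 with the largest rise and the 5 with the largest fall from 2i to AA+2i, and the members among ERK output genes. DESeq2 1.42.0, limma 3.58.1 on log2(TPM + 1), TMM factors, other filters, other limits for members, GC correction, the letter as a block and each letter left out were alternatives. Coordinates of genes are those of mm9 (GENCODE vM1 annotation), and promoter sequences are from RefSeq (GRCm38.p6). One gene of the lists is not reported here.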

Additional observations from a re-analysis of the deposited data

Results flagged for a closer look

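Gm7609 was below DMSO with 2i in all 3 letters, which is how it was selected, and above AA with AA+2i in all 3, at 1.26, 1.73 and 1.01 TPM in letters A, B and C against 1.03, 0.90 and 0.99 with AA. The step from AA to AA+2i was not called (0.60 ± 0.28, edgeR adjusted p = 0.312), and the difference between the changes was not tested. Its expected counts were fractional in all 12 libraries, and the part of shared reads in this pattern was not tested.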

How the results depend on the processing

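The number of members rose from 45 to 95 at a limit of 33.3% of DMSO and to 71 at a mean DMSO TPM of 1, and was 23 at a mean of 10. Leaving out a letter gave 49 to 78 members. From AA to AA+2i, 37 members were lower. With at least 10 counts in every library 21 of the 23 that could be tested were lower, and 73 of the 95 members at 33.3% were. Leaving out a letter gave 6 to 34, the lowest without B, and the cause was not tested. TMM, no count filter, DESeq2, limma, GC correction, the block and a fit of only the groups compared gave 32 to 40 lower, and GC correction called 1 member, Raet1c, higher. The sign differed from the reported one only when a letter was left out, in Egr1 (-2.05 without C, 0.31 without B and 0.34 without A) and Gm14440 (2.09 without A, -0.16 without C and -1.12 without B). The median difference of AA+2i from AA over letters was -2.03 as log2(TPM + 1) and -2.75 as log2(TPM + 0.1).

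AA+2i against 2i depended more on the fit. Members called lower were 1 as reported, 3 with GC correction, 4 with DESeq2 and 0 with limma, and 0 to 0 with a letter left out. Members called higher were 0 as reported, and 1 with GC correction and with DESeq2. Over the gene lists, members included, 2i against DMSO called 41 of 377 genes lower and 6 higher as reported, 80 and 13 with GC correction, and 7 to 35 and 0 to 3 with a letter left out.

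Same-letter libraries deviated together in most pairs but not in every pair, and the letter was left out of the reported model. Deviations from the group means correlated at a mean r of 0.401 over 18 same-letter pairs of libraries, from -0.588 to 0.894. Between different letters the mean was -0.196 over 36 pairs. An r above 0.1 was found in 15 of the same-letter pairs and in 9 of the others. The replicate block called 39 members lower from AA to AA+2i, which added Slc38a4 and Tcf15 (edgeR adjusted p = 0.0248 and 0.000338). Against 2i it called 6 lower and 1 higher, and 10 lower and 7 higher together with GC correction. Over the lists it called 84 lower and 13 higher.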
